A study of Mus musculus with 6 samples.

Results

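The GADD45 family (*Gadd45a*, *Gadd45b* and *Gadd45g*) and *Map3k4*, the gene of the kinase that GADD45 proteins switch on, were examined in early large pre-B cells (early LPre-B cells) of mouse bone marrow. These 4 genes were picked by name from the 13426 genes of the deposited table, through their Entrez IDs, and all 4 had a row. RNA was sequenced from cells of Ctrl mice and of Upf1-cKO mice, with 3 libraries per group that the study's methods describe as independent biological replicates. The helicase UPF1 drives nonsense-mediated mRNA decay (NMD), and the comparison asks how the transcriptome of this stage changes when it is deleted. Values are normalised reads, which, as worked out from the deposited values and not stated in the labels, are reads plus 0.5 scaled to 1e6 effective reads per library.

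Mice of both groups were on a C57BL/6 background, 8 to 16 weeks old, of both sexes, and homozygous for a floxed *Upf1* allele (Upf1 Flox/Flox) with loxP sites around exons 4 to 6. Ctrl mice had no Cre (Mb1 +/+), whereas Upf1-cKO mice carried a Cre recombinase in 1 copy of the B lineage gene *Cd79a* (Mb1 Cre/+). The presence of Cre and the loss of *Upf1* therefore cannot be told apart in this design. Cells were sorted as negative for lineage markers, B220+, sIgM-, CD43+, FSC hi and CD2-, among other criteria.

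GADD45 proteins are small acidic proteins with no known enzyme activity, made when DNA is damaged, growth is arrested or a cell is stressed. They bind the inhibitory part of MAP3K4, which then activates the MAP2K kinases and through them p38 and JNK, kinases that can lead to cell cycle arrest or apoptosis. GADD45 proteins also bind PCNA, the CDK inhibitor p21 and the CDK1 and cyclin B1 complex, and GADD45β is known to bind and block the MAP2K kinase MKK7 in some cells.

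Reads recovered from the values summed to between 9732498 and 11006834 per library over the genes kept in the table. Every gene of the table exceeded 0.5 normalised reads in at least 3 libraries, so a gene low in Ctrl could enter it through the Upf1-cKO libraries alone, whereas the 4 members exceeded 0.5 in all 6. The targeted gene was not lower: *Upf1* (chromosome 8, 70331493 to 70353423, GRCm38) had 260, 203 and 259 normalised reads in Ctrl libraries 1, 2 and 3 and 308, 283 and 300 in the libraries labelled Upf1-cKO (cKO-labelled libraries), a log2 fold change of 0.31 (limma, adjusted p 0.00696) whose call was lost without the trend (adjusted p 0.0685) and with median centring (0.0645), and which was 0.19 without Ctrl replicate 2. Its row sums the whole gene, so it does not show whether exons 4 to 6 were removed, and because strand was not used it may include reads of *Cers1* and *Gdf1*, which overlap it. By the paper's account, UPF1 protein was lost in early LPre-B cells of Upf1-cKO mice. *Cd79a*, the locus that carries Cre, had 234, 215 and 213 normalised reads in Ctrl and 71.6, 75.2 and 73.0 in cKO-labelled libraries. All 13 B lineage markers had a row, with a summed level of 3002 to 3274 normalised reads in Ctrl and 3308 to 3530 in cKO-labelled libraries. Of these 13, 5 were called higher, where 27.7% of all genes tested were, among them *Kit* (log2 fold change 2.07), *Dntt* (1.64) and *Rag1* (1.55), and 3 lower, where 25.0% of all genes were (*Cd79a*, -1.58, *Ptprc*, -0.84, and *Il7r*, -0.61). The part of these 8 genes in the results that follow was not tested. Most defining T cell markers (*Cd3d*, *Cd3e*, *Cd3g*, *Cd4*, *Cd8a*) had no row.

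Of the 4 genes, *Gadd45b* and *Gadd45g* rose in cKO-labelled libraries, while *Gadd45a* and *Map3k4* did not pass the test. Thus 2 of 4 were called higher and 0 lower at an adjusted p below 0.05, where 27.7% of all genes tested were called higher, 25.0% lower and 52.7% in either direction. The groups did not overlap for 3 of 4, against 58.8% of all genes. Shares of 4 genes this near the background say nothing about them as a set. In sorted bulk cells, a change in the share of some cell type and a change in RNA per cell cannot be told apart.

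**Figure D1:**
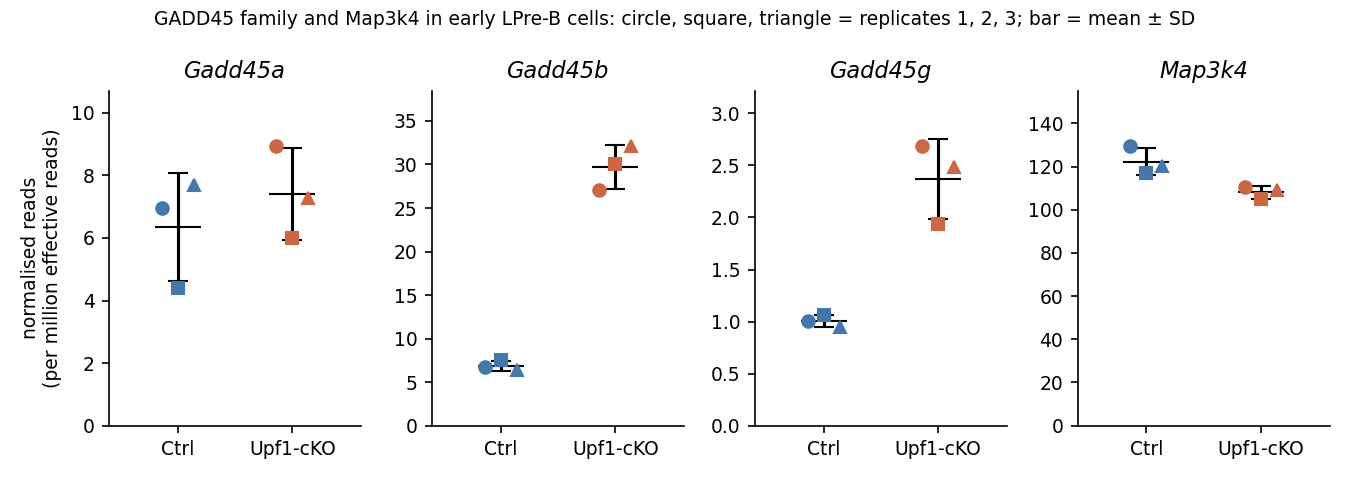
Normalised reads (vertical axis, linear, from 0) of *Gadd45a*, *Gadd45b*, *Gadd45g* and *Map3k4* in the 3 Ctrl and 3 cKO-labelled libraries, each point a library, with bars for the mean ± SD. *Gadd45b* lies at 6.40 to 7.53 in Ctrl and at 27.1 to 32.1 in cKO-labelled libraries, *Gadd45g* is also separate but low, *Gadd45a* overlaps, and *Map3k4* lies slightly lower in cKO-labelled libraries, a direction that turns when libraries are scaled to total reads.

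The promoters of the GADD45 genes are shown because GADD45 genes are known to be induced at transcription and differed in size of change here. Each line gives 172 bases, from 190 to 19 bases before the RefSeq start on GRCm38, 5′ to 3′ on the gene's strand, at chr6:67037426-67037597 (minus strand), chr10:80929901-80930072 (plus strand) and chr13:51846485-51846656 (plus strand).
Gadd45a: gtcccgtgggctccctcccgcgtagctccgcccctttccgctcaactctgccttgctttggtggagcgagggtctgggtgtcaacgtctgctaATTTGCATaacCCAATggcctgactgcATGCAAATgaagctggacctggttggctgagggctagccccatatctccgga
Gadd45b: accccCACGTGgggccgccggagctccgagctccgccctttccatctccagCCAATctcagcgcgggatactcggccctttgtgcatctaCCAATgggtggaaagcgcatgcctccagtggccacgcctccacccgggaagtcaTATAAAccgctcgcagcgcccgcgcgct
Gadd45g: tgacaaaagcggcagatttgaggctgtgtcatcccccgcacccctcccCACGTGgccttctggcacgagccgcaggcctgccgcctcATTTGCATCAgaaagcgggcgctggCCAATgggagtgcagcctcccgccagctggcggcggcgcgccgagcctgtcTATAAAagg
Capitals mark matches to 5 motifs, searched on both strands and chosen after the letters had been seen. These were the TATA box TATAAA (in 4.24% of 12856 promoter windows of the same length), the CCAAT box CCAAT (29.5%), the E-box CACGTG (6.10%), the octamer ATTTGCAT (0.89%) bound by OCT factors, and the C/EBP-ATF element TGATGNAA (1.41%) bound by dimers of CHOP and ATF4.

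*Gadd45b* and *Gadd45g* each held a TATA box and an E-box, and these letters were not found in the *Gadd45a* window. The TATA box began 46 bases before the start in *Gadd45b* and 27 bases before it in *Gadd45g*. *Gadd45a* held the octamer in both directions, from 97 to 90 and from 70 to 63 bases before the start, and *Gadd45g* held it from 103 to 96. The C/EBP-ATF element was found on the opposite strand of *Gadd45g*, from 101 to 94, where it overlaps the octamer. A CCAAT box was present in all 3. These matches describe letters in the window and no binding was measured.

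*Gadd45b* (Entrez ID 17873, chromosome 10, 80930091 to 80932204, plus strand) encodes GADD45β, which is induced by NF-κB and TGF-β signalling in other cells. Ctrl libraries 1, 2 and 3 had 6.75, 7.53 and 6.40 normalised reads, from 63, 74 and 64 reads. The cKO-labelled libraries had 27.1, 30.1 and 32.1, from 277, 333 and 380 reads. Every cKO-labelled library was far above every Ctrl library, and the spread within each group was small beside the gap. The mean was 4.32 times as high (6.89 ± 0.575 against 29.7 ± 2.52, SD, n = 3), with a log2 fold change of 1.96 (95% confidence interval 1.67 to 2.25) and an adjusted p of 1.51e-09 in limma. This was rank 166 of 13426 genes by log2 fold change. No other annotated gene overlaps *Gadd45b*, so its reads are not shared by position.

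*Gadd45g* (Entrez ID 23882, chromosome 13, 51846675 to 51848475, plus strand) encodes GADD45γ, a cytokine-inducible member known for driving p38 in T cells. It was the rarest of the 4. Ctrl libraries had 1.01, 1.06 and 0.943 normalised reads, from 9, 10 and 9 reads, and cKO-labelled libraries had 2.68, 1.94 and 2.49, from 27, 21 and 29 reads. The groups did not overlap, although each value rests on few reads. The mean rose from 1.0 ± 0.0589 to 2.37 ± 0.386 (SD, n = 3), 2.36 times as high, with a log2 fold change of 0.74 (95% confidence interval 0.31 to 1.18, limma adjusted p 0.00565). The pseudocount of 1 is as large as the Ctrl level and shrank this value. With no added pseudocount it was 1.23 (adjusted p 0.0118), and edgeR on the recovered reads gave 1.27 (adjusted p 0.0103).

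*Gadd45a* (Entrez ID 13197, chromosome 6, 67035096 to 67037407, minus strand) encodes GADD45α, the founding member and a p53 target. Ctrl libraries had 6.96, 4.39 and 7.70 normalised reads, from 65, 43 and 77 reads. The cKO-labelled libraries had 8.93, 6.0 and 7.29, from 91, 66 and 86 reads. The groups overlapped, with Ctrl library 3 above cKO-labelled libraries 2 and 3. The means were 6.35 ± 1.73 and 7.41 ± 1.47 (SD, n = 3), and the log2 fold change of 0.21 had a 95% confidence interval of -0.22 to 0.64 (limma adjusted p 0.412). This interval still allows a rise of 0.64 on the log2 scale, and the point value was 0.00 without Ctrl replicate 2. The non-coding gene *E230016M11Rik* overlaps it on the opposite strand, and because counting ignored strand the reads of the pair cannot be told apart.

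*Map3k4* (Entrez ID 26407, chromosome 17, 12227621 to 12318796, minus strand) encodes the kinase that GADD45 proteins bind and open. Ctrl libraries had 129, 117 and 121 normalised reads and cKO-labelled libraries had 111, 105 and 109, from 1132 to 1296 reads in the latter. All cKO-labelled libraries lay below all Ctrl libraries, by a small margin. The means were 122 ± 6.31 and 108 ± 3.0 (SD, n = 3), a ratio of 0.884, with a log2 fold change of -0.18 (95% confidence interval -0.34 to -0.01) that did not pass after adjustment in limma (p 0.0375, adjusted p 0.0674). The sign depended on the scaling, being 0.03 (adjusted p 0.814) with libraries scaled to total reads, which moved the median of all genes to 0.19, and -0.28 (adjusted p 0.00469) after median centring, which moved it to -0.10. Relative to these medians the values were -0.16 and -0.19. Without Ctrl replicate 2 the value was -0.21 and passed (adjusted p 0.0456). A processed pseudogene (*AC136921.1*) and a snoRNA (*Gm24794*) lie within the locus on the opposite strand.

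**Figure D2:**
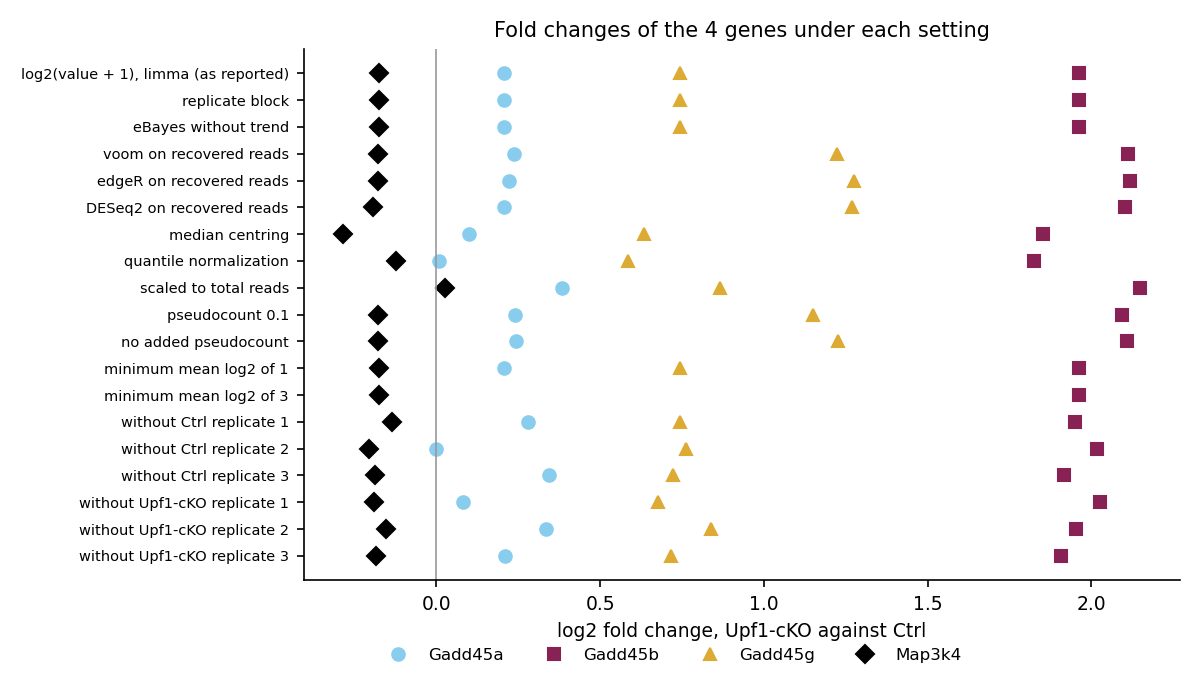
Log2 fold change of cKO-labelled against Ctrl libraries (horizontal axis) for the 4 genes under each setting tried, 1 symbol per gene. *Gadd45b* stays between 1.82 and 2.15, *Gadd45g* is shrunk wherever 1 is added before the logarithm, *Gadd45a* runs from 0.00 to 0.38, and *Map3k4* runs from -0.28 to 0.03 and turns positive when scaled to total reads.

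The members were then compared on 1 scale, as normalised reads per kb of the principal GENCODE transcript. In Ctrl libraries *Map3k4* was highest at 22.5 ± 1.16 (SD, n = 3), followed by *Gadd45b* at 5.37 ± 0.448, *Gadd45a* at 5.19 ± 1.42 and *Gadd45g* at 0.938 ± 0.0550. The neighbours *Gadd45a* (3.59 to 6.29) and *Gadd45b* (4.99 to 5.86) overlapped in Ctrl, so their order there is not resolved, whereas the other neighbours did not overlap. In cKO-labelled libraries *Gadd45b* was first at 21.1 to 25.0 per kb and *Map3k4* second at 19.3 to 20.3, with *Gadd45a* at 4.90 to 7.30 and *Gadd45g* at 1.81 to 2.51. The summed GADD45 level per kb was 11.5 ± 0.919 in Ctrl and 31.4 ± 1.63 in cKO-labelled libraries. The level of *Map3k4* was 1.82 to 2.06 times this sum in Ctrl libraries and 0.60 to 0.66 times it in cKO-labelled libraries, so that message for the GADD45 partners went from below that of the kinase to above it on this scale, a change that was not tested.

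**Figure D3:**
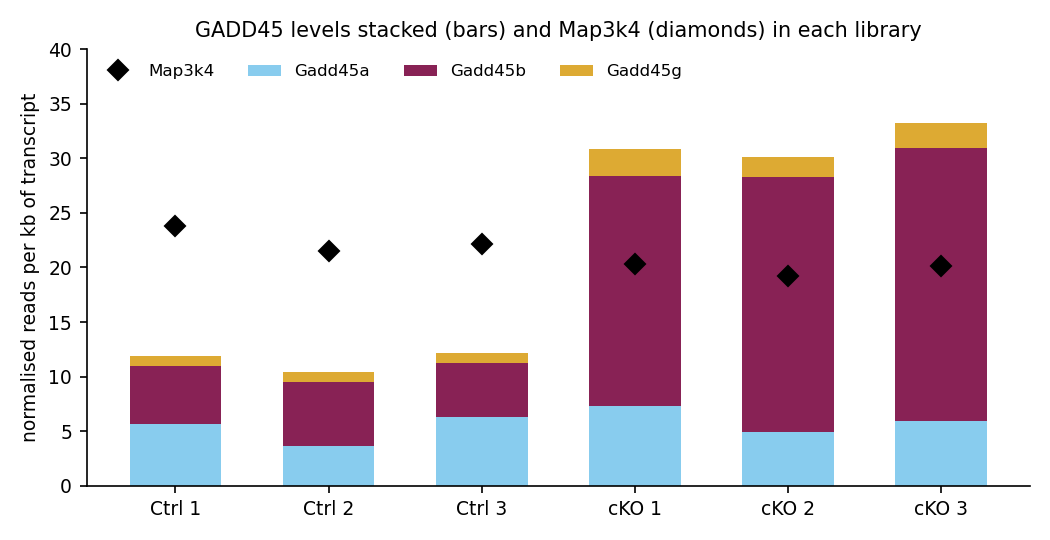
Normalised reads per kb of transcript (vertical axis, from 0) in each of the 6 libraries, with *Gadd45a*, *Gadd45b* and *Gadd45g* stacked as bars and *Map3k4* as diamonds. The stacks reach 10.4 to 12.2 in Ctrl, below the diamonds, and 30.1 to 33.3 in cKO-labelled libraries, above them, and the middle block (*Gadd45b*) makes up most of the gain.

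The make-up of the family is given by each member's share of GADD45 reads. *Gadd45b* gave 46.0% (exact 95% interval 37.4 to 54.7), 58.3% (49.2 to 67.0) and 42.7% (34.6 to 51.0) of GADD45 reads in Ctrl libraries 1, 2 and 3, of 137, 127 and 150 such reads. In cKO-labelled libraries it gave 70.1% (65.3 to 74.6), 79.3% (75.1 to 83.1) and 76.8% (72.8 to 80.4), of 395, 420 and 495 reads. The shares of the groups did not overlap, but the intervals of Ctrl library 2 and cKO-labelled library 1 overlapped. The share of *Gadd45a* was 33.9% to 51.3% in Ctrl and 15.7% to 23.0% in cKO-labelled libraries, while that of *Gadd45g* was 6.0% to 7.9% and 5.0% to 6.8%. These intervals cover counting error only.

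Ratios within a library do not depend on its scaling, and 3 of them were tested by exact permutation (two-sided, 20 assignments of the libraries, smallest possible p 0.1). The log2 ratio of *Gadd45b* to *Gadd45a* was -0.05, 0.78 and -0.27 in Ctrl and 1.6, 2.33 and 2.14 in cKO-labelled libraries, a difference of 1.87. That of *Gadd45b* to *Gadd45g* was 2.78 ± 0.045 and 3.66 ± 0.311 (SD), a difference of 0.88, which became 1.22 with a pseudocount of 1. That of *Gadd45g* to *Gadd45a* was -2.62 ± 0.509 and -1.64 ± 0.092, a difference of 0.98, which became 0.54 with a pseudocount of 1 (exact p 0.2). Without a pseudocount all 3 ratios were separate between the groups and had the smallest exact p that 3 against 3 allows (0.1, and 0.1 after Benjamini-Hochberg adjustment over 3), so none could pass the threshold.

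The 4 genes share little in their transcripts beyond the build of the GADD45 members. The principal transcripts of *Gadd45a*, *Gadd45b* and *Gadd45g* each have 4 exons, are 1223, 1284 and 1071 nucleotides long and code over 495, 480 and 477 nucleotides, while that of *Map3k4* has 27 exons and 5441 nucleotides. None of the 4 has an exon junction more than 50 nucleotides beyond its stop codon, a feature that marks an mRNA for NMD and that 0.37% of 11780 genes with a principal transcript had. Only *Map3k4* has an open reading frame starting upstream of its own, which 43.8% of these genes had. The AU-rich pentamer ATTTA, common in short-lived mRNAs, occurred 2 times in the 3′UTR of *Gadd45a* and 1 time in that of *Map3k4* and was not found in *Gadd45b* or *Gadd45g*, against 66.1% of genes with at least 1. The annotation also lists 4, 1, 1 and 3 transcripts with a retained intron for *Gadd45a*, *Gadd45b*, *Gadd45g* and *Map3k4*, and the table, which holds 1 value per gene, does not separate them. Whether any of the 4 mRNAs is a target of NMD was not tested here, and these features do not decide it. The paper names *Gadd45b* as a known NMD target and found it among RNAs bound by phosphorylated UPF1 in activated splenic B cells.

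The summed level of neutrophil and monocyte markers moved with the groups. Of 12 such markers 11 had a row, and, where 27.7% of all genes were called higher and 25.0% lower, 6 were called higher (*S100a8*, *S100a9*, *Ly6g*, *Elane*, *Lyz2* and *Csf3r*) and 1 lower (*Itgam*, which encodes the CD11b of the lineage stain). Their summed level was 163, 105 and 69.0 normalised reads in Ctrl libraries 1, 2 and 3 and 437, 343 and 319 in cKO-labelled libraries, with *Ly6g* at 0 reads in Ctrl libraries 2 and 3. *Ngp* was the largest part of each cKO-labelled sum (148.2, 127.5 and 95.7) and was not called (limma adjusted p 0.0572). In Ctrl libraries 1, 2 and 3 *Ngp* had 44.9, 2.68 and 2.23. *Ly6g* and *Elane* exceeded 0.5 normalised reads in 1 and 2 Ctrl libraries, so that they too are in the table through the group where they are high. Their part in the rise of *Gadd45b* and *Gadd45g* was not tested. Among the Ctrl libraries, library 1 had the highest sum and library 2 the highest *Gadd45b*. Among the cKO-labelled libraries, library 1 had the highest sum and the lowest *Gadd45b* (27.1). *Gadd45a* and *Gadd45g* were highest in that library, at 8.93 and 2.68. Of the other marker lists, later B or plasma cell markers had 1 of 7 higher and 3 lower, dendritic cell markers 2 of 5 higher and 1 lower, T and NK cell markers 0 higher and 1 lower of 2 with a row, and erythroid markers 0 called of 3 with a row. Other sums also separated the groups. Later B or plasma cell markers summed to 300 to 315 in Ctrl and 101 to 124 in cKO-labelled libraries. Dendritic cell markers summed to 24.4 to 27.1 and 46.6 to 49.2, and T and NK cell markers to 63.7 to 92.2 and 25.3 to 27.5. Erythroid sums overlapped.

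**Figure D4:**
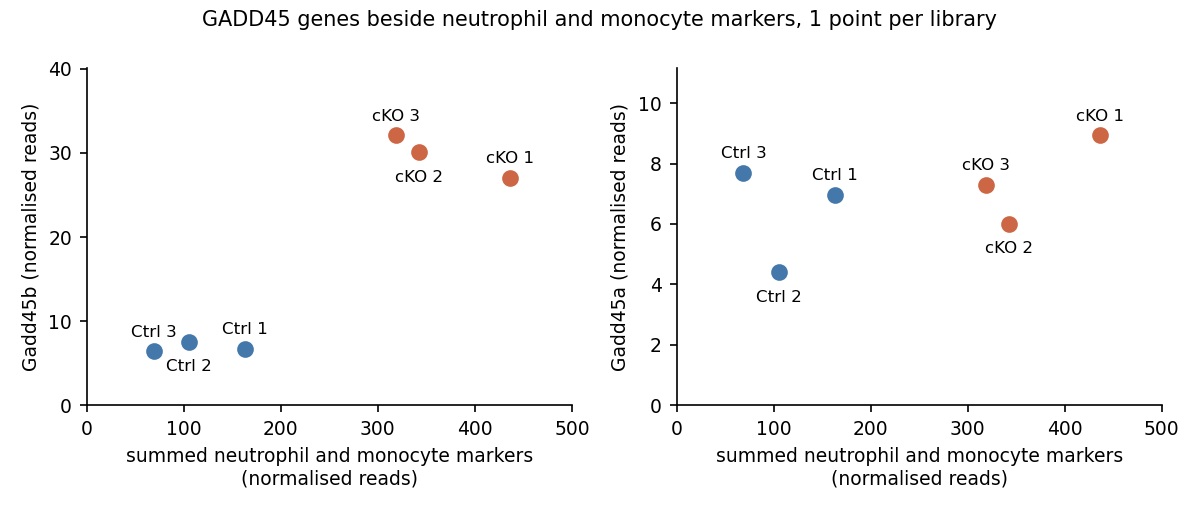
Normalised reads of *Gadd45b* (left) and *Gadd45a* (right) against the summed normalised reads of 11 neutrophil and monocyte markers, 1 point per library. Both *Gadd45b* and the marker sum separate the groups, while within the cKO-labelled libraries the sum runs from 319 to 437 and *Gadd45b* from 32.1 down to 27.1.

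Outside the kinase cascade, the binding partners of GADD45 proteins were mostly lower. Of 7 partner genes, 1 rose, 5 fell and 1 did not pass, where 27.7% of all genes were called higher and 25.0% lower (median log2 fold change -0.49, against 0.01 over all genes). *Cdkn1a*, which encodes p21, was the member that rose, from 25.1 ± 3.62 to 64.4 ± 0.589 normalised reads (log2 fold change 1.34, limma adjusted p 8.86e-09). *Pcna*, the sliding clamp of DNA replication, fell from 656 ± 34.1 to 367 ± 13.5 (-0.83, adjusted p 1.53e-08). *Ccnb1*, which encodes cyclin B1, had 154, 157 and 158 normalised reads in Ctrl and 111, 99.0 and 113 in cKO-labelled libraries (-0.53, adjusted p 1.64e-05), and *Tdg*, a DNA glycosylase that acts with GADD45α in demethylation, had a log2 fold change of -0.49 (adjusted p 0.00194). The number of lower partners was 4 in place of 5 with libraries scaled to total reads and without the trend. It was also 4 without Ctrl replicate 2, Ctrl replicate 3, Upf1-cKO replicate 1 or Upf1-cKO replicate 2.

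Among other MAP3K kinases that feed p38 and JNK, 3 of 16 were higher and 2 lower (median -0.01), 5 called in all where 52.7% of all genes were called, all 3 higher genes having at most 73 reads in any library. *Map3k8*, the gene of the kinase TPL2, rose from 15, 8 and 13 reads to 62, 66 and 73 (1.28 ± 0.397 to 6.10 ± 0.10 normalised reads, log2 fold change 1.65, adjusted p 2.34e-06). *Map3k9*, the mixed lineage kinase MLK1, had 19, 8 and 3 reads in Ctrl and 41, 37 and 39 in cKO-labelled libraries (1.21, adjusted p 0.000678). *Map3k6* went from 1, 3 and 6 reads to 18, 8 and 14 (0.70, adjusted p 0.0185), and lost its call with quantile normalization (0.56, adjusted p 0.056), without Ctrl replicate 1 (0.58) or without Upf1-cKO replicate 1 (0.53). *Map3k1*, which encodes MEKK1, fell from 496 ± 23.9 to 355 ± 0.912 (-0.48, adjusted p 1.21e-05). *Map3k6* and *Map3k9* exceeded 0.5 normalised reads in 1 and 2 Ctrl libraries and so are in the table through the group where they are high, and their calls support no count of higher genes. Libraries scaled to total reads gave 7 higher and 1 lower, and median centring 3 higher and 5 lower.

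The MAP2K kinases stand between MAP3K4 and p38 or JNK. Of these 4 genes, 0 were higher and 2 lower (median -0.39), a share called that is near the 52.7% of all genes. *Map2k3*, the gene of the p38 activator MKK3, had 71.4, 66.8 and 62.9 normalised reads in Ctrl and 45.1, 44.9 and 43.7 in cKO-labelled libraries (-0.58, limma adjusted p 2.84e-05). *Map2k6*, the gene of its close relative MKK6, had 10.4, 14.2 and 12.9 against 8.64, 8.88 and 7.04 (-0.55, adjusted p 0.00908), and lost its call with libraries scaled to total reads (-0.36, adjusted p 0.0732) and without Upf1-cKO replicate 3 (-0.46, adjusted p 0.0524), which left 1 of 4 called. The genes of the JNK activators MKK4 and MKK7 did not pass in the test as reported, though both did after median centring (-0.34 and -0.22) and *Map2k4* did after quantile normalization (-0.31, adjusted p 0.0301): *Map2k4* had a log2 fold change of -0.23 (adjusted p 0.0937) and *Map2k7* of -0.11 (adjusted p 0.278), the latter turning to 0.09 with libraries scaled to total reads. The number called was 4 after median centring, 3 after quantile normalization and 1 after scaling to total reads, with 0 higher in each.

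At the level of p38 and JNK themselves, 5 of 7 genes had a row (*Mapk10* and *Mapk12* had none), and 2 were higher and 0 lower, where 52.7% of all genes were called in either direction. *Mapk11*, which encodes p38β, had 6.64, 6.42 and 5.81 normalised reads in Ctrl and 27.4, 17.6 and 27.5 in cKO-labelled libraries (6.29 ± 0.430 to 24.2 ± 5.67, log2 fold change 1.76, limma adjusted p 7.96e-08). The groups did not overlap, and the spread was wider among the cKO-labelled libraries, with library 2 below the others. *Mapk13*, which encodes p38δ, had 9, 0 and 0 reads in Ctrl and 16, 10 and 13 in cKO-labelled libraries (0.76, adjusted p 0.0191). It exceeded 0.5 normalised reads in 1 Ctrl library and so is in the table through the group where it is high, which makes its call no support for a rise. This call was lost in edgeR (adjusted p 0.0678) and DESeq2 (0.383) and without Ctrl replicate 2, Ctrl replicate 3 or Upf1-cKO replicate 1, each of which left 1 gene called. The other kinase genes did not pass in the test as reported, with log2 fold changes of -0.03 for *Mapk14* (p38α, 170 ± 7.21 against 167 ± 3.16, adjusted p 0.789), -0.02 for *Mapk9* (JNK2, adjusted p 0.886) and 0.18 for *Mapk8* (JNK1, adjusted p 0.242). *Mapk8* passed without Ctrl replicate 1 (0.31, adjusted p 0.0348) and with libraries scaled to total reads (0.38, adjusted p 0.0183). The signs of *Mapk14* and *Mapk9* turned with quantile normalization and with scaling to total reads.

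Scaffolds and adaptors hold these kinases together, and 8 of 9 had a row, with 2 higher and 2 lower (median 0.01), a share called near that of all genes (52.7%). Scaling to total reads gave 3 higher and 0 lower. *Mapk8ip3*, which encodes the JNK scaffold JIP3, had 82.2, 71.5 and 92.3 normalised reads in Ctrl and 246, 245 and 245 in cKO-labelled libraries (log2 fold change 1.58, limma adjusted p 7.29e-11). *Nme3* overlaps it on the opposite strand, so that part of these reads may be from *Nme3*. *Axin1* and *Tab2* fell by 0.30 and 0.29 on the log2 scale (adjusted p 0.00284 and 0.00520), and neither passed when libraries were scaled to total reads. *Tab3*, an adaptor of the kinase TAK1, passed barely (0.28, adjusted p 0.0491) and not in 9 of 18 alternatives, among them those without Ctrl replicate 2, Ctrl replicate 3, Upf1-cKO replicate 1 or Upf1-cKO replicate 3.

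**Figure D5:**
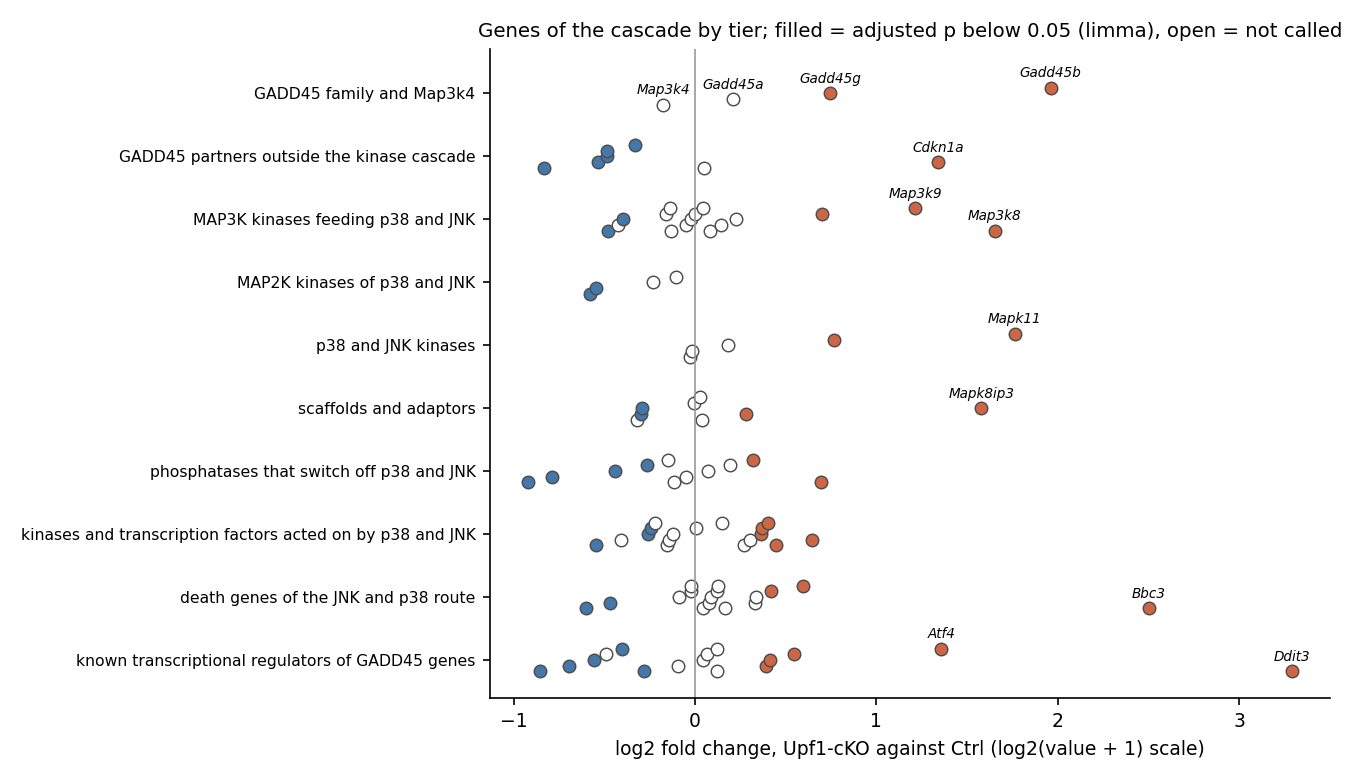
Log2 fold change (log2(value + 1) scale, horizontal axis) of every measured gene of the cascade, grouped by role on the vertical axis, with filled points for an adjusted p below 0.05 in limma and open points for the rest. Points lie on both sides of 0 in most rows, *Gadd45b* and *Mapk11* stand near 1.96 and 1.76, and the 4 MAP2K genes all lie below 0, except that *Map2k7* turns positive when libraries are scaled to total reads.

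Phosphatases that switch the cascade off had calls in both directions in the test as reported. Of 11 genes with a row (12 listed), 2 were higher and 4 lower (median -0.12), 6 called of 11 where 52.7% of all genes were called. Median centring gave 1 higher and 6 lower, scaling to total reads 2 and 2, and the fits without Ctrl replicate 3 or Upf1-cKO replicate 2 had 0 higher. *Dusp10*, which encodes MKP-5, a phosphatase of p38 and JNK, fell from 16.1 ± 2.23 to 8.04 ± 1.29 normalised reads (-0.92, limma adjusted p 9.72e-05), and *Ppm1d*, which encodes the p38 phosphatase WIP1, fell from 58.8 ± 3.5 to 33.9 ± 5.51 (-0.79, adjusted p 1.18e-05). *Dusp5* and *Dusp7*, the pair that rose, are known mainly as phosphatases of ERK. *Dusp5* had a log2 fold change of 0.70 (adjusted p 0.0137) with overlapping groups, and lost its call with quantile normalization (0.51, adjusted p 0.0605) and without Ctrl replicate 2, Ctrl replicate 3 or Upf1-cKO replicate 2. *Dusp22* had a log2 fold change of -0.44 (adjusted p 0.00991), which did not pass without Upf1-cKO replicate 3 (-0.37) or with libraries scaled to total reads (-0.25, adjusted p 0.151). Without Upf1-cKO replicate 2, 3 genes of this list were called.

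Kinases and transcription factors acted on by p38 and JNK were likewise split, with 5 of 17 higher and 3 lower (median 0.00), 8 called of 17 where 52.7% of all genes were called. *Jun*, the AP-1 subunit that JNK phosphorylates, had 33.7, 18.7 and 20.7 normalised reads in Ctrl and 35.8, 38.5 and 38.3 in cKO-labelled libraries, a log2 fold change of 0.65 (limma adjusted p 0.00697) with Ctrl library 1 close to the other group. *Mapkapk5* and *Mapkapk3*, kinases downstream of p38, rose by 0.45 (adjusted p 0.000975) and by 0.40 (adjusted p 0.0111), the call of the latter being lost with median centring, with quantile normalization and without Upf1-cKO replicate 1 or Upf1-cKO replicate 3. *Mef2d*, a transcription factor of p38, fell from 196 ± 10.2 to 134 ± 1.58 (-0.55, adjusted p 6.68e-06). Without Upf1-cKO replicate 1 or Upf1-cKO replicate 3, 5 genes were called in place of 8. Scaling to total reads gave 8 higher and 1 lower, and median centring 3 higher and 7 lower.

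Death genes of the JNK and p38 route had 16 of 18 members in the table, with 3 higher and 2 lower (median 0.11), 5 called of 16 where 52.7% of all genes were called. *Bbc3*, which encodes the BH3-only protein PUMA, had 1.96, 2.07 and 0.745 normalised reads in Ctrl and 16.1, 10.9 and 13.2 in cKO-labelled libraries (log2 fold change 2.50, limma adjusted p 4.16e-08), against 1.96 for *Gadd45b*, and the groups did not overlap. *Pmaip1*, which encodes NOXA, had 19, 33 and 22 reads against 41, 52 and 49 (0.59, adjusted p 0.0227), and was not called by DESeq2 (adjusted p 0.0662), with median centring (0.0572), with quantile normalization (0.0997) or without Ctrl replicate 1, Ctrl replicate 3, Upf1-cKO replicate 2 or Upf1-cKO replicate 3. *Cycs*, the gene of cytochrome c, fell from 21.5 ± 2.86 to 13.9 ± 2.59 (-0.60, adjusted p 0.00233). *Bmf*, whose protein JNK phosphorylates, had a log2 fold change of -0.47 (adjusted p 0.0273) that was not called without the trend (adjusted p 0.0509) or with libraries scaled to total reads (-0.28, adjusted p 0.199) and that, among the fits leaving out a library, passed only without Ctrl replicate 2 and was -0.31 without Ctrl replicate 3. Without Ctrl replicate 1, Upf1-cKO replicate 2 or Upf1-cKO replicate 3, 3 genes of the list were called, and scaling to total reads gave 7 higher and 1 lower.

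Known regulators of GADD45 genes were split evenly, with 5 of 16 higher and 5 lower (median 0.05), where 27.7% of all genes were higher and 25.0% lower. *Ddit3*, which encodes CHOP, had 10.9, 9.35 and 10.6 normalised reads in Ctrl and 111, 108 and 108 in cKO-labelled libraries (log2 fold change 3.29, limma adjusted p 2.36e-14). *Atf4*, the transcription factor above it in the integrated stress response, had 70.2, 86.7 and 73.4 against 196, 186 and 210 (1.36, adjusted p 6.54e-10). *Zfp36* and *Zfp36l1*, whose proteins bind AU-rich elements and speed mRNA decay, fell by 0.86 (adjusted p 1.42e-06) and 0.70 (adjusted p 7.9e-06) on the log2 scale. *Nfkb1* (log2 fold change -0.28) and *Rela* (-0.40), the NF-κB genes of this list, were among the 5 lower genes. The other higher genes were *Foxo1* (0.41, with overlapping groups), *Foxo3* (0.39) and *Smad3* (0.55). Scaling to total reads gave 9 higher and 2 lower, and median centring 4 higher and 7 lower.

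The genes whose pattern over the 6 libraries was most like that of each member were found by Pearson's r of log2(value + 1) among 12323 genes with a mean of at least 1 on that scale. The 6 points fall into the 2 groups, so for a gene that differs between them r reflects mostly that difference, and the values are a description. For *Gadd45b* they were *Rab3gap2* (r = 0.9998), *Tifab* (0.9994) and *Sh2d5* (0.9994), whose log2 fold changes of 0.47, 1.21 and 2.57 differ widely in size. For *Gadd45g* they were *Gde1* (0.9987) and *Trnau1ap* (0.9976). For *Map3k4* they were *R3hdm2* (0.995), *Igsf8* (0.994) and *Rubcn* (0.990), with the highest level in Ctrl library 1 in each. For *Gadd45a* they were *Sgtb* (0.984), *3300002I08Rik* (0.972) and *Ribc1* (0.972), with the lowest value in Ctrl library 2.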

How the data were processed

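The authors deposited 1 table of normalized signal per gene for 6 libraries (rRNA depletion, single-end reads, cutadapt 4.0, HISAT2 on mm10, featureCounts 2.0.1 without strand, limma 3.48.0, per the methods and the submitters' processing notes). Each deposited signal value equals a read count plus 0.5 over an effective library size, and whole reads were recovered for 100% of values (tolerance 0.02). Reads totalled 9732498 to 11006834 per library.

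Differences were tested with limma 3.58.1 (R 4.3.3) on log2(value + 1), eBayes with trend and robust estimation, with Benjamini-Hochberg adjustment over 13426 genes. A gene was called at an adjusted p below 0.05. Fold changes on this scale understate those of low genes. Groups came from the sample labels. Only the limma step was tested on simulated libraries, which had far fewer changed genes than were called here. Alternatives were a replicate block, no trend, voom, edgeR 4.0.16 and DESeq2 1.42.0 on recovered reads, other scalings, pseudocounts, minimum levels and leaving out each library.

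Symbols, coordinates and promoters came from RefSeq (GRCm38.p6), which named 13008 IDs, with 3 from GENCODE M21 and 415 unnamed. Transcript features came from GENCODE M21.

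The members and gene lists were chosen with earlier results of these data known. Named genes were the members, *Upf1*, each MAP2K, p38 and JNK gene, up to 4 called genes per other list with the largest change, and the 3 nearest patterns per member. Some items that met this rule are not reported here. *Cd79a*, *Kit*, *Dntt*, *Rag1*, *Ptprc*, *Il7r*, *Dusp7*, *Nfkb1*, *Rela*, *Foxo1*, *Foxo3*, *Smad3* and the neutrophil markers were named in addition.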

Additional observations from a re-analysis of the deposited data

How the results depend on the processing

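The fold changes of *Gadd45b* (1.82 to 2.15) and *Gadd45g* (0.58 to 1.27) kept their direction and their call under each alternative that held them, and *Gadd45a* (0.00 to 0.38) passed in none. A minimum mean log2 value of 3 removed *Gadd45a* and *Gadd45g*. *Map3k4* ran from -0.28 (median centring, adjusted p 0.00469) to 0.027 (scaled to total reads, adjusted p 0.814), and from -0.21 to -0.14 when each library was left out. The log2 ratio of *Gadd45b* to *Gadd45g* became 1.22 with a pseudocount of 1, and that of *Gadd45g* to *Gadd45a* fell from 0.98 to 0.54 (exact p 0.2). Scaling to total reads gave 5172 higher and 1936 lower genes (72.8% of calls higher, against 52.6%), and median centring 2992 and 4355 (40.7%). The MAP3K list had 8 called genes with median centring, 8 with total reads and 2 with the minimum of 3, and the MAP2K list 4 with median centring, 3 with quantile normalization and 1 with total reads. The p38 and JNK list had 1 called gene in edgeR and DESeq2 and with either minimum. The substrate list had 5 with quantile normalization, and the death gene list 8 with total reads and 3 with the minimum of 3. Leaving out each library gave 1 to 2 called MAP2K genes, 1 to 3 p38 and JNK genes, 3 to 5 phosphatases, 5 to 10 substrates and 3 to 6 death genes. *Map2k7* turned to 0.094 with total reads, *Mapk9* to 0.016 and 0.184 and *Mapk14* to 0.059 and 0.177 with quantile normalization and total reads, and among the fits leaving out a library *Mapk9* ran from -0.09 to 0.044 and *Mapk14* from -0.058 to 0.002. The causes were not tested.

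Replicate numbers are shared between the groups, and the labels also give same-numbered libraries consecutive numbers. What same-numbered libraries share is not given in the sources used here. These libraries did not deviate together (r = 0.089, -0.029 and -0.032), so they were not treated as pairs. With the replicate block 3668 genes were higher and 3321 lower, and *Map3k4* had an adjusted p of 0.0858. Among the 4 members depth limits *Gadd45g* most, at 9 to 29 reads per library, and whether libraries of a group came from separate batches is not given in the sources used here.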
